A study of Homo sapiens with 8 samples.

Results

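Estradiol was added to dexamethasone in Ishikawa cells, an established human endometrial adenocarcinoma line that responds to estrogen, and the RNA of these cells was set against that of cells given dexamethasone alone. The comparison takes 4 of the 8 RNA-seq libraries of the series. The combination group has 2 libraries of cells given dexamethasone at 100 nM and 17-beta-estradiol at 10 nM. The dexamethasone group has 2 libraries of cells given dexamethasone at 100 nM, so that all 4 libraries share dexamethasone and differ in estradiol. The other 4 libraries, 2 of cells given estradiol at 10 nM and 2 of cells given the vehicle DMSO, hold the same comparison without dexamethasone. The treatment time is 8 hr in the sample labels and 1 hr in the shared protocol, and which applies was not settled here. All cells were kept in phenol red-free medium with charcoal-treated serum, which holds little steroid hormone. A single cell line was used, and nothing in the labels tells separate cultures from repeat preparations of the same cells, so the spread behind each p-value is that of these libraries and may be technical.

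Estradiol acts through estrogen receptors and dexamethasone, a synthetic glucocorticoid, through the glucocorticoid receptor. Both receptors are transcription factors that enter or stay in the nucleus when bound by hormone, attach to their own response elements or to other DNA-bound factors such as AP-1, and draw on shared coregulators. In the endometrium estrogen is known for driving growth of the epithelium and for inducing the progesterone receptor.

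Gene counts summed to between 17846211 and 22487333 per library, and 14201 of the 26364 listed genes were expressed highly enough to be tested. CPM stands for counts scaled by the size of the library, and all levels are in this unit. Epithelial markers fitted the label: 7 of 7, among them KRT8 at up to 1967 CPM, stood above 1 CPM in all 4 libraries, with a summed level of 3654 to 3879 CPM in the combination and 4225 to 4724 CPM in dexamethasone. Of 11 leukocyte markers 0 stood above 1 CPM in all 4 libraries, and CD3E was at 0. Of 9 endothelial markers 3 did, with CDH5, TEK and EMCN at 0. Of 9 fibroblast markers 3 did, with FAP at 0, COL1A1 at up to 164 CPM and a summed level of 138 to 156 CPM in the combination and 156 to 182 CPM in dexamethasone. Their part in the results was not tested. Sampling noise did not account for the spread within groups: chi-square divided by its degrees of freedom was 12.2 between the combination libraries and 24.8 between the dexamethasone libraries. The ribosomal RNA gene RNA45S5 took 3.08% and 3.97% of the counts in the combination libraries and 3.23% and 1.42% in dexamethasone replicates 1 and 2.

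Adding estradiol raised 117 genes and lowered 262. These are 0.824% and 1.84% of the genes tested, or 2.67% in all, by edgeR's quasi-likelihood test with a Benjamini-Hochberg threshold of 0.05 on the adjusted p, while the unadjusted p was under 0.05 at 2371 genes. The progesterone receptor, alkaline phosphatases and a natriuretic peptide gene were among the largest increases. The Nodal antagonist LEFTY1, CYP1A1, STAC2, FAM107A and HIF3A were among the largest decreases. On the log2 scale 52 of the raised genes changed by more than 1 and 75 of the lowered genes by more than 1. The levels of the 2 combination libraries lay apart from those of the 2 dexamethasone libraries at each of the 379 genes. With 2 libraries per group a call nearly requires such a gap, and its share over all genes is not given here. The gap therefore adds no support to the calls. In bulk RNA, a change in the share of cells that express a gene and a change in RNA per cell cannot be told apart. The count changed with the libraries in the fit, also with those of estradiol and DMSO, which share 1 estimate of the spread. It was 89 without combination replicate 1 (39 higher, 50 lower), 100 without the unnumbered combination library (36 and 64) and 90 without dexamethasone replicate 2 (33 and 57). Without dexamethasone replicate 1 it was 437 (189 and 248), of which 279 were among the 379.

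The dexamethasone libraries stood apart from each other at these genes. Of the 117 raised genes, 97 were higher in dexamethasone replicate 1 than in replicate 2, and of the 262 lowered genes 52 were. Over all 14201 tested genes the number was 7140. Replicate 1 therefore lay nearer to the combination for most of the called genes in both directions. The part of this spread in the results was not tested, and values of named genes without replicate 1 are given beside them where they differ by over 1.5-fold.

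**Figure D1:**
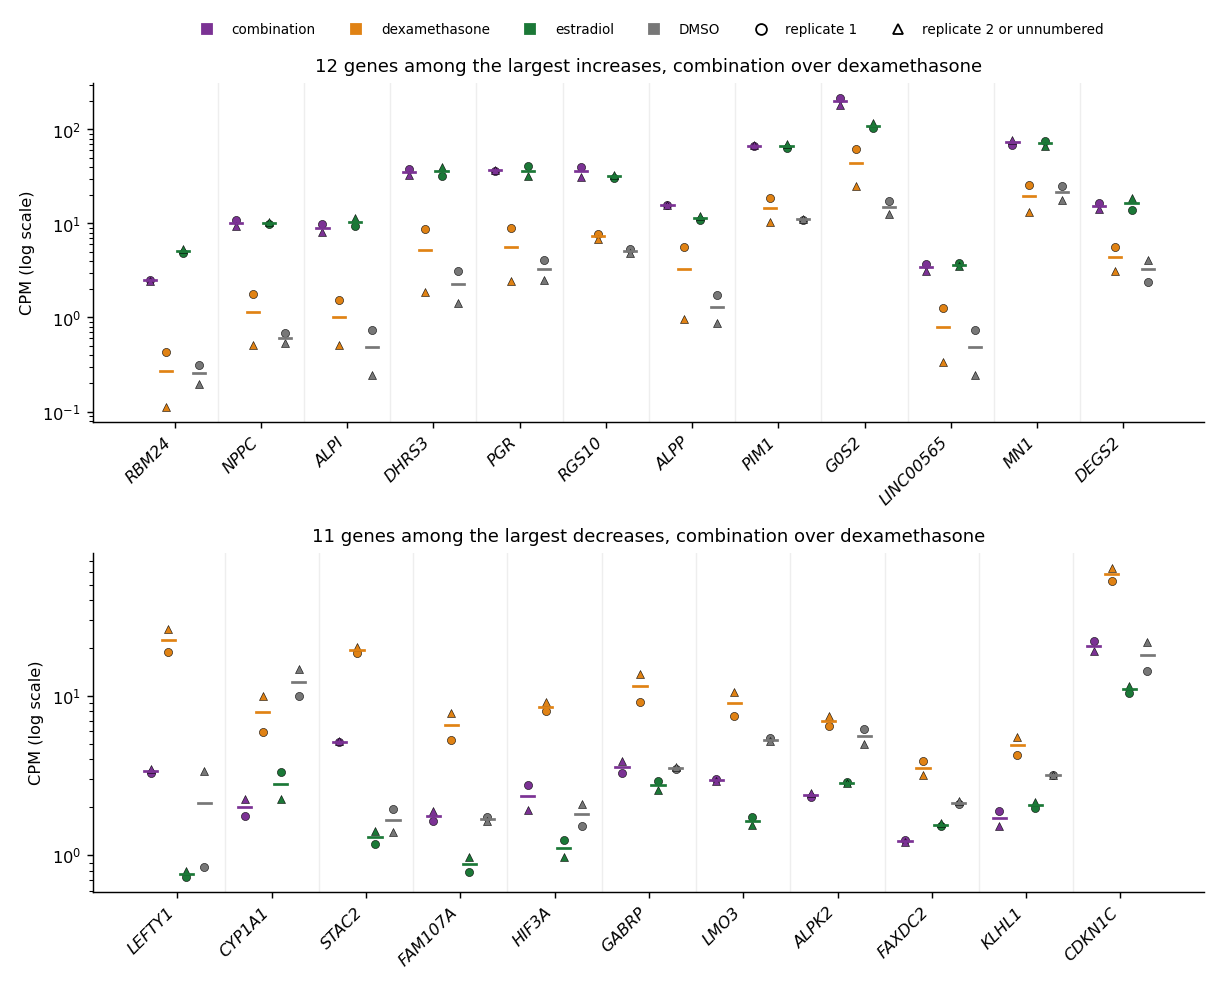
Levels in CPM (log axis) of 12 genes with the largest increases (top) and 11 among the largest decreases (bottom) of combination over dexamethasone, in each library of the 4 groups; bars are group means. The combination libraries lie apart from the dexamethasone libraries at all 23 genes, which was a condition for choosing them. Dexamethasone replicate 1 (circles) lies above replicate 2 (triangles) at all 12 raised genes.

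The nuclear receptor gene PGR, which encodes the progesterone receptor and is a classical estrogen target, stood at 36.5 and 37.3 CPM in the combination, against 8.91 and 2.47 CPM in dexamethasone. The combination libraries were close to each other and far above both dexamethasone libraries, with a log2 fold change of 2.67 ± 0.37 (SE, adjusted p = 0.0048). It was 3.90 without dexamethasone replicate 1 and 2.04 without replicate 2. NRIP1, a corepressor that binds estrogen receptor, was at 105 and 125 CPM in the combination and 65.9 and 42.4 CPM in dexamethasone (1.08 ± 0.18, adjusted p = 0.013). GREB1, an estrogen-induced cofactor of the receptor, was at 30.3 and 34.2 CPM against 17.7 and 6.85 CPM (1.38 ± 0.30, adjusted p = 0.0359). Both combination libraries lay above both dexamethasone libraries at GREB1, but its fold change was 2.23 without dexamethasone replicate 1, and it lost its call without any combination or estradiol library (adjusted p up to 0.169) and in DESeq2 (adjusted p = 0.0808). NRIP1 lost its call without the unnumbered combination library or dexamethasone replicate 2 (adjusted p up to 0.0899). The receptor genes themselves were not called. ESR1, which encodes estrogen receptor alpha, was at 144 and 154 CPM in the combination and 199 and 184 CPM in dexamethasone (log2 fold change -0.36 ± 0.10, adjusted p = 0.0896). NR3C1, which encodes the glucocorticoid receptor, was at 62.9 and 64.9 CPM against 60.0 and 58.9 CPM (0.10 ± 0.10, adjusted p = 0.645). TFF1, an estrogen target known from breast cells, had 0 counts in all 8 libraries, which allows a level of up to 0.168 CPM in the smallest library, from 3 counts.

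Estrogen targets as a list held the highest share of raised genes. Like the other lists, it was drawn up with earlier results of these data known, and it includes NPPC, ALPI and RBM24. Its share is therefore no independent support. Of 34 tested members 14 rose and 1, the G1 cyclin gene CCND1, fell, against 0.824% and 1.84% of all genes. Their median log2 fold change was 0.56, beside -0.0034 over all tested genes. Without each of the 4 libraries of the comparison in turn, between 7 and 11 rose and 0 fell. CCND1 was at 589 and 641 CPM in the combination and 925 and 801 CPM in dexamethasone (-0.49 ± 0.11, adjusted p = 0.0466), and lost its call without any combination, dexamethasone or estradiol library (adjusted p up to 0.332). Of 30 steroid receptor and coregulator genes, PGR, NRIP1 and PPARGC1B rose and PPARGC1A fell. The coactivator gene PPARGC1A, a regulator of mitochondrial biogenesis, was at 4.70 and 5.39 CPM in the combination and 10.6 and 11.95 CPM in dexamethasone (-1.16 ± 0.17, adjusted p = 0.00655). Its relative PPARGC1B was at 21.9 and 25.6 CPM against 16.6 and 12.6 CPM (0.70 ± 0.15, adjusted p = 0.0324). PPARGC1A lost its call without combination replicate 1 or dexamethasone replicate 2 (adjusted p up to 0.0801), and PPARGC1B without any combination or estradiol library or dexamethasone replicate 2 (adjusted p up to 0.273).

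Signalling genes were among the strongest increases. RGS10, a GTPase-activating regulator of G protein signalling, had the smallest p of all named genes and stood at 40.2 and 31.4 CPM in the combination, against 7.75 and 6.79 CPM in dexamethasone. Both dexamethasone libraries were alike here, and the log2 fold change was 2.30 ± 0.15 (adjusted p = 0.000173). NPPC, which encodes the precursor of C-type natriuretic peptide, was at 10.9 and 9.29 CPM in the combination and 1.78 and 0.505 CPM in dexamethasone (3.09 ± 0.33, adjusted p = 0.00227). The kinase gene PIM1, a cytokine-induced survival kinase, was at 66.7 and 67.7 CPM against 18.8 and 10.3 CPM (2.20 ± 0.20, adjusted p = 0.00105). NPPC had a fold change of 4.31 without dexamethasone replicate 1 and 2.50 without replicate 2. Of 17 JAK-STAT and PIM genes 4 rose and 0 fell, against 0.824% and 1.84% of all genes. The 4 were PIM1, PIM3, the cytokine signalling inhibitor CISH and the LIF receptor gene LIFR. CISH was at 7.32 and 7.86 CPM against 4.57 and 2.86 CPM. PIM3 was at 123 and 115 CPM against 86.9 and 71.8 CPM, and LIFR at 29.9 and 33.3 CPM against 19.3 and 19.5 CPM. Their log2 fold changes were 1.02 ± 0.22, 0.58 ± 0.12 and 0.70 ± 0.15. PIM1 was the member of this list that kept its call without each library. Without combination or dexamethasone libraries in turn between 1 and 3 of the list rose, and CISH, PIM3 and LIFR each lost the call without either combination library or dexamethasone replicate 2 (adjusted p up to 0.269), CISH also without either estradiol library and LIFR without dexamethasone replicate 1.

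Genes of 3 alkaline phosphatases, cell-surface enzymes that cleave phosphate groups and serve as an estrogen readout in Ishikawa cells, rose. They are the raised members of a list of 21 endometrial receptivity and secretion genes, in which the integrin gene ITGB3 fell and the median log2 fold change was -0.02. Without each of the 4 libraries in turn 1 to 3 of the list rose and 0 to 1 fell. The shares over all genes were 0.824% higher and 1.84% lower. The intestinal form ALPI was at 9.81 and 8.22 CPM in the combination and 1.54 and 0.505 CPM in dexamethasone (3.09 ± 0.37, adjusted p = 0.0028). The placental form ALPP was at 15.8 and 15.7 CPM against 5.63 and 0.954 CPM (2.21 ± 0.46, adjusted p = 0.03), and the placental-like form ALPPL2 at 47.7 and 43.8 CPM against 23.4 and 7.58 CPM (1.55 ± 0.34, adjusted p = 0.0388). At each of the 3 genes dexamethasone replicate 1 lay between replicate 2 and the combination. Without replicate 1 the fold changes of ALPI, ALPP and ALPPL2 were 4.14, 4.04 and 2.59, and that of ALPP was 1.48 without replicate 2. ALPP and ALPPL2 lost their calls without any combination or estradiol library (adjusted p up to 0.161) and, with all 8 libraries, in DESeq2 (adjusted p up to 0.145). ALPP and ALPPL2 (ALPG in the annotation) share 2500 bases at 90.3% identity, so reads may be split between them.

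Some genes of retinoid, lipid and steroid handling rose, and a smaller number fell. DHRS3, which reduces retinaldehyde to retinol, was at 37.9 and 32.8 CPM in the combination and 8.72 and 1.85 CPM in dexamethasone (2.70 ± 0.44, adjusted p = 0.00947). G0S2, an inhibitor of adipose triglyceride lipase, was at 215 and 183 CPM against 62.6 and 25.2 CPM (2.18 ± 0.31, adjusted p = 0.00557). The combination was far above both dexamethasone libraries at both genes. Without dexamethasone replicate 1 their fold changes were 4.25 and 2.98, and that of DHRS3 was 2.01 without replicate 2. DEGS2, a sphingolipid desaturase and hydroxylase, was at 16.4 and 14.3 CPM against 5.63 and 3.09 CPM (1.80 ± 0.27), a call lost without dexamethasone replicate 2 (adjusted p = 0.0619). ABCA3, a lipid transporter, was at 56.7 and 55.9 CPM against 32.7 and 29.4 CPM (0.86 ± 0.10, adjusted p = 0.0028). The cholesterol exporter gene ABCA1 moved the other way, with 10.9 and 13.3 CPM in the combination and 22.7 and 24.5 CPM in dexamethasone (-0.96 ± 0.17), a call lost without combination replicate 1 or dexamethasone replicate 2 (adjusted p up to 0.153). Of 17 retinoid and vitamin D genes RARA, DHRS3 and the transglutaminase gene TGM2 rose and RARG fell, of 16 lipid storage genes G0S2 and ABCA3 rose and ABCA1 fell, and of 23 steroid and xenobiotic metabolism genes HSD11B2 and TIPARP rose and CYP1A1 fell. The median log2 fold changes of these lists were -0.15, -0.07 and -0.12, and 0.824% of all genes rose and 1.84% fell. The receptor genes RARA (0.54 ± 0.12) and RARG (-0.47 ± 0.10) each lost the call without any combination or dexamethasone library (adjusted p up to 0.296), and TGM2 (0.70 ± 0.11) without the unnumbered combination library or dexamethasone replicate 2 (adjusted p up to 0.107). HSD11B2, which inactivates cortisol, was at 12.2 and 12.5 CPM in the combination and 7.75 and 3.98 CPM in dexamethasone (1.06 ± 0.25, adjusted p = 0.0486), a call lost without any combination or estradiol library or dexamethasone replicate 2 (adjusted p up to 0.246).

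Among ion and water transport genes 3 of 21 rose and 3 fell, against 0.824% and 1.84% of all genes. The carbonic anhydrase gene CA12 was at 25.2 and 25.9 CPM in the combination and 12.1 and 6.01 CPM in dexamethasone (1.48 ± 0.23, adjusted p = 0.00825, and 2.08 without dexamethasone replicate 1). SLC9A3R1, a scaffold for membrane transporters, was at 393 and 374 CPM against 227 and 234 CPM (0.73 ± 0.09, adjusted p = 0.00338). CA2 was the other member that rose. In the opposite direction SCNN1A, a pore subunit of the sodium channel ENaC, was at 231 and 233 CPM against 337 and 378 CPM (-0.62 ± 0.09, adjusted p = 0.00568). The calcium channel gene TRPV6 also fell. SCNN1A lost its call without either combination library or dexamethasone replicate 2 (adjusted p up to 0.0783). Without each of the 4 libraries in turn 2 to 3 of the list rose and 0 to 3 fell.

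Further genes that rose have other roles. RBM24, an RNA-binding regulator of splicing, had the largest fold change of the named genes, with 2.53 and 2.42 CPM in the combination and 0.433 and 0.112 CPM in dexamethasone (3.10 ± 0.40, adjusted p = 0.00348). It rests on few counts in dexamethasone, and was 4.39 without dexamethasone replicate 1 and 2.49 without replicate 2. The transcriptional coregulator gene MN1 was at 68.2 and 77.8 CPM against 25.5 and 13.3 CPM (1.90 ± 0.24, adjusted p = 0.00338). The noncoding RNA LINC00565 was at 3.73 and 3.14 CPM against 1.25 and 0.337 CPM (2.06 ± 0.44, adjusted p = 0.0359), with values of 3.33 and 1.45 without dexamethasone replicate 1 and 2, and a call lost without any combination or estradiol library or dexamethasone replicate 2 (adjusted p up to 0.205). BAG3, a co-chaperone of HSP70, was at 224 and 215 CPM in the combination and 113 and 101 CPM in dexamethasone (1.04 ± 0.10, adjusted p = 0.00105). It was the 1 of 19 heat shock genes that was called, while 0.824% of all genes rose and 1.84% fell. Of the 19, 17 had a positive fold change, with a list median of 0.20 beside -0.0034 over all tested genes. Genes of a list are not independent observations. SLC7A5, a transporter of large neutral amino acids, was at 2339 and 2359 CPM against 1661 and 1111 CPM (0.76 ± 0.16). VEGFA, the vascular growth factor, was at 97.4 and 93.5 CPM against 75.5 and 64.4 CPM (0.45 ± 0.10). SLC7A5 and VEGFA were the called members of the amino acid list (1 of 26) and the glycolysis and hypoxia list (1 of 25), and both lost the call without any combination or estradiol library or dexamethasone replicate 2 (adjusted p up to 0.349). VEGFA also lost it in a fit of the 4 libraries alone (adjusted p = 0.0515).

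Promoters are shown for 3 genes among the 12 largest changes in each direction: PGR and RGS10, which rose, with an estrogen response half-site (GGTCA on either strand) in capitals, and FAM107A, which fell, with a glucocorticoid response element (GNACA, 3 bases, then its reverse complement TGTNC) in capitals. They are RefSeq windows of 250 bases before to 50 bases after a transcript start in GRCh38.p14, at chr11:101129014-101129313 (minus strand), chr10:119542670-119542969 (minus strand) and chr3:58577342-58577641 (minus strand), each written 5′ to 3′. They were chosen after the search, and that of FAM107A is 1 of its 3 windows.
PGR: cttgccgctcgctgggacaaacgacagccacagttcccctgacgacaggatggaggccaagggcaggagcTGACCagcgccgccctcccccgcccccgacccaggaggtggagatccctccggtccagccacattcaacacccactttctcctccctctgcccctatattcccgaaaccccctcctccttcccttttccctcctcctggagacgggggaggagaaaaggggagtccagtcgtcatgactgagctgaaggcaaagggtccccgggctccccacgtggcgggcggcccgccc
RGS10: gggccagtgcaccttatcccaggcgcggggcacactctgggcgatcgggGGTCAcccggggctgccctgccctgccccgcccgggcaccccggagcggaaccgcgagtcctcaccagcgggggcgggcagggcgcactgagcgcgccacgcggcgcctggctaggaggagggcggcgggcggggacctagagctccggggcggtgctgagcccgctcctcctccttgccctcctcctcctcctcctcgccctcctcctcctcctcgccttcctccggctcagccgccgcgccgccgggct
FAM107A: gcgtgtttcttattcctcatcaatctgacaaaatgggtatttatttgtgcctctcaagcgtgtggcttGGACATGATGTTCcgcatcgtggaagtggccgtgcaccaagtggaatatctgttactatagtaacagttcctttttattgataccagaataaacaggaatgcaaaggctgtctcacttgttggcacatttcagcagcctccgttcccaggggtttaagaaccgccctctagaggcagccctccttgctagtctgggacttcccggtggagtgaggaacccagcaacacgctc

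Windows were found for 86 of the 117 raised genes (127 windows) and 180 of the 262 lowered genes (308 windows), and motifs were searched on both strands. The full estrogen response element (GGTCA, 3 bases, then its reverse complement TGACC, so that it holds the half-site on each strand) was in 0 windows of either group, against 0.0195% of the 15406 windows of tested genes and 0.057% of all 35116 windows. Its half-site was in 39.4% of the windows of raised genes and 28.2% of those of lowered genes, against 34.5% for tested genes and 37.4% of all windows. The glucocorticoid response element was in 1 window of a raised gene (EEF2K), in 3 windows of the lowered genes FAM107A and PPARGC1A, in 0.26% of the windows of tested genes and in 0.39% of all windows. The AP-1 site TGANTCA was in 7.87% of the windows of raised genes and 8.12% of those of lowered genes, against 5.19% for tested genes and 7.71% of all windows. The differences between these shares were not tested. A match is a string in a short window and not a binding site, and the windows of 1 gene can overlap.

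Several genes known to be induced by glucocorticoids fell when estradiol was added. TSC22D3, whose product GILZ is an anti-inflammatory leucine zipper protein, was at 70.0 and 63.5 CPM in the combination, against 119 and 150 CPM in dexamethasone (-1.01 ± 0.13, adjusted p = 0.00338). It was at 10.7 and 11.9 CPM in estradiol and 13.0 and 15.5 CPM in DMSO, so the combination lay between dexamethasone and the groups without it. PER1, a repressor of the circadian clock, was at 90.6 and 95.7 CPM in the combination and 129 and 125 CPM in dexamethasone (-0.45 ± 0.10, adjusted p = 0.0388), a call lost without any combination or dexamethasone library (adjusted p up to 0.316). FKBP5, an HSP90 co-chaperone that lowers the hormone affinity of the glucocorticoid receptor, was at 209 and 225 CPM against 259 and 303 CPM and was not called (-0.37 ± 0.10, adjusted p = 0.0972). The levels of FKBP5 did not overlap between the groups. With 2 libraries per group such a gap adds no support, and its share over all genes is not given here. STAC2, an adaptor protein gene of calcium channels, was at 5.15 and 5.21 CPM in the combination, against 18.5 and 20.4 CPM in dexamethasone, with 1.18 and 1.41 CPM in estradiol and 1.94 and 1.41 CPM in DMSO (combination over dexamethasone -1.91 ± 0.16, adjusted p = 0.00105). CDKN1C, which encodes the cyclin-dependent kinase inhibitor p57, was at 22.3 and 19.0 CPM in the combination and 52.8 and 63.4 CPM in dexamethasone (-1.49 ± 0.17, adjusted p = 0.00273).

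Of 41 tested glucocorticoid targets 9 fell and 2 rose, against 1.84% and 0.824% of all genes, and the median log2 fold change was -0.27. The list was drawn up with earlier results of these data known. Any member taken up for being high in these dexamethasone libraries would tend to fall against them, so the count is no independent support. Beside the genes above, SCNN1A, PPP1R1B, DDIT4, CRISPLD2 and ANXA1 fell, and HSD11B2 and the transcription factor gene TFCP2L1 rose. Without each of the 4 libraries in turn between 5 and 10 of the list fell and between 0 and 2 rose. DDIT4, an inhibitor of mTORC1, was at 275 and 255 CPM in the combination, against 530 and 538 CPM in dexamethasone, with 190 and 200 CPM in estradiol and 443 and 462 CPM in DMSO. It was thus lower with estradiol in both backgrounds, by -1.01 ± 0.09 over dexamethasone (adjusted p = 0.00105) and by -1.22 ± 0.09 over DMSO (adjusted p = 0.000221). Several of the largest decreases were of genes outside the list that were also high in dexamethasone. They were chosen for a low ratio over these same dexamethasone libraries, so a high level there is partly built in. HIF3A, a hypoxia-inducible factor subunit that can restrain its relatives, was at 2.75 and 1.93 CPM in the combination and 7.99 and 9.15 CPM in dexamethasone, with 1.52 and 2.09 CPM in DMSO. FAM107A, an actin-binding gene induced by stress hormones, was at 1.64 and 1.89 CPM against 5.30 and 7.86 CPM, with 1.73 and 1.65 CPM in DMSO. At both genes the combination libraries overlapped with the DMSO libraries, and the dexamethasone libraries stood above these. GABRP, a subunit of the GABA-A receptor, was at 3.28 and 3.91 CPM in the combination and 9.20 and 13.7 CPM in dexamethasone. The log2 fold changes of HIF3A, FAM107A and GABRP were -1.87 ± 0.23, -1.89 ± 0.25 and -1.67 ± 0.21.

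**Figure D2:**
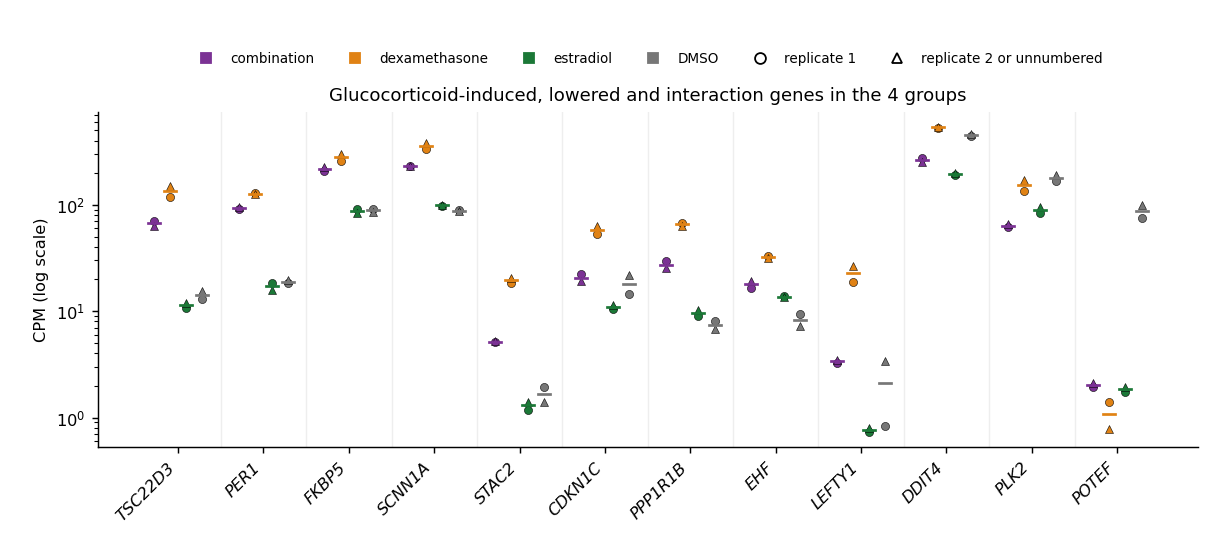
Levels in CPM (log axis) of genes known as glucocorticoid targets, other lowered genes and the 3 interaction genes in each library of the 4 groups; bars are group means. TSC22D3, PER1, SCNN1A, STAC2 and PPP1R1B are highest in dexamethasone and lower in the combination, and POTEF is high in DMSO only, at 75.9 and 99.8 CPM.

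A ligand, a target and antagonists of TGF-beta family signalling fell. LEFTY1, an antagonist of Nodal, was at 3.28 and 3.50 CPM in the combination and 18.8 and 26.4 CPM in dexamethasone (-2.73 ± 0.35, adjusted p = 0.00338), the largest decrease among the named genes. Its relative LEFTY2 was at 29.3 and 25.0 CPM against 43.7 and 50.8 CPM (-0.80 ± 0.13, adjusted p = 0.00947). LEFTY1 and LEFTY2 share 1203 bases at 96.4% identity, so their counts may be split. TGFB2, a ligand, was at 12.6 and 12.1 CPM against 22.2 and 28.3 CPM (-1.03 ± 0.14, adjusted p = 0.00373), and ID1, a target of BMP signalling, at 157 and 144 CPM against 206 and 231 CPM (-0.54 ± 0.11, adjusted p = 0.0353). These 4 were the called members among 28, with 0 higher, against 1.84% lower and 0.824% higher over all genes. The list median was -0.05, and between 2 and 4 fell without each library of the comparison. LEFTY2 lost its call without the unnumbered combination library or dexamethasone replicate 2 (adjusted p up to 0.118), and ID1 without any combination or estradiol library or dexamethasone replicate 2 (adjusted p up to 0.297).

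Some receptors, a ligand and feedback inhibitors of EGF and FGF signalling fell, 7 of 24 with 0 higher. Over all genes 1.84% fell and 0.824% rose. The list median of the log2 fold change was -0.09, and 10 of the 24 had a positive value. The receptor gene FGFR2 was at 45.5 and 49.3 CPM in the combination and 78.8 and 93.8 CPM in dexamethasone (-0.86 ± 0.11, adjusted p = 0.00329). The ligand gene FGF18 was at 80.5 and 85.5 CPM against 123 and 141 CPM (-0.67 ± 0.10, adjusted p = 0.00696). The feedback inhibitor genes SPRY1 and DUSP6, a phosphatase of ERK, were at 33.5 and 33.8 CPM and at 39.4 and 40.4 CPM in the combination, against 53.8 and 52.4 CPM and 62.8 and 65.5 CPM in dexamethasone. Their groups lay well apart, with log2 fold changes of -0.66 ± 0.10 and -0.68 ± 0.11. ERBB2, FGFBP1 and SPRY4 were the other members that fell. FGFR2 kept its call without each library, whereas FGF18 lost it without combination replicate 1 or dexamethasone replicate 2, SPRY1 without either combination library, and DUSP6 without either combination library or dexamethasone replicate 2 (adjusted p up to 0.101). Without each of the 4 libraries in turn between 1 and 5 of the list fell and 0 to 1 rose. IGFBP3, which binds insulin-like growth factors, was at 249 and 254 CPM in the combination and 446 and 654 CPM in dexamethasone (-1.13 ± 0.15, adjusted p = 0.00403), and was with DDIT4 the lowered part of a list of 24 insulin and IGF genes, in which IGFBP4 rose (1.57 ± 0.35). IGFBP4 was at 1.73 and 2.29 CPM against 0.722 and 0.617 CPM and lost its call without any combination, dexamethasone or estradiol library (adjusted p up to 0.304) and, with all 8 libraries, in DESeq2 (adjusted p = 0.0946) and limma-voom (adjusted p = 0.0547). Of 31 Wnt genes the receptor gene FZD5 rose (163 and 169 CPM against 120 and 87.0 CPM) and the ligand gene WNT7A fell (50.6 and 50.5 CPM against 80.4 and 83.7 CPM), and both lost the call without either combination library or dexamethasone replicate 2, FZD5 also without estradiol replicate 1 or 2 (adjusted p up to 0.249).

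**Figure D3:**
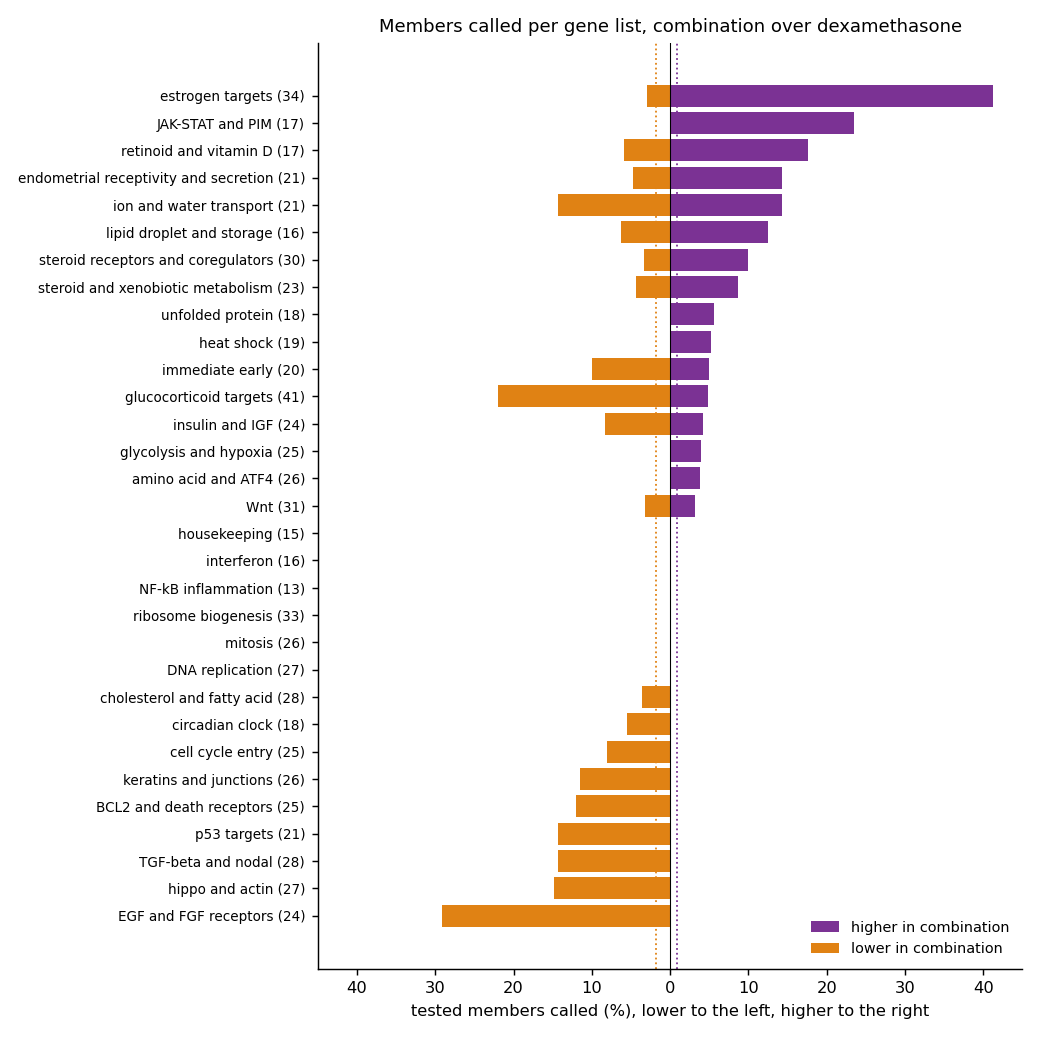
Share of the tested members of each gene list that were called higher (right) or lower (left) in combination over dexamethasone; the number of tested members is in brackets, and dotted lines mark the share over all 14201 genes, 0.824% higher and 1.84% lower. Estrogen targets have the highest share raised, 14 of 34, and the lists were chosen with earlier results of these data known. Of EGF and FGF genes 7 of 24 were lowered, and 1 to 5 without each of the 4 libraries.

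Some genes of cell death and stress fell as well. BMF, a BH3-only promoter of apoptosis, was at 9.23 and 8.39 CPM in the combination and 18.3 and 25.3 CPM in dexamethasone (-1.30 ± 0.18, adjusted p = 0.00433). PLK2, a p53-inducible polo-like kinase, was at 61.6 and 65.3 CPM against 135 and 170 CPM (-1.27 ± 0.13, adjusted p = 0.00157). Both kept their calls without each library. The death receptor gene FAS was at 25.7 and 26.1 CPM against 35.7 and 37.6 CPM (-0.50 ± 0.10), the antiproliferative gene BTG2 at 52.3 and 50.2 CPM against 70.3 and 74.2 CPM (-0.49 ± 0.09), and the survival gene BCL2L1 at 79.7 and 75.5 CPM against 108 and 142 CPM (-0.69 ± 0.13). Genes that promote and genes that oppose cell death were thus both among those that fell. FAS, BTG2 and BCL2L1 lost their calls without either combination library or dexamethasone replicate 2, FAS also without dexamethasone replicate 1 and BCL2L1 without estradiol replicate 1 (adjusted p up to 0.239). Of 25 BCL2 family and death receptor genes 3 fell, and of 21 p53 targets 3 fell, with 0 higher in either list. Among all genes 1.84% fell and 0.824% rose, and the medians of the 2 lists were -0.07 and 0.03. The AP-1 subunit gene JUNB was at 44.5 and 40.4 CPM in the combination and 81.5 and 96.0 CPM in dexamethasone (-1.06 ± 0.15, adjusted p = 0.0048). JUN was at 12.03 and 12.5 CPM against 18.4 and 21.9 CPM (-0.72 ± 0.16), a call lost without either combination library or dexamethasone replicate 2 (adjusted p up to 0.319). EGR3, an immediate early gene that estrogen induces, rose (2.35 and 2.11 CPM against 0.963 and 0.786 CPM), a call lost without any combination, dexamethasone or estradiol library (adjusted p up to 0.234) and in DESeq2 (adjusted p = 0.102).

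Some targets of the Hippo pathway and genes of the epithelial cytoskeleton fell. CTGF and CYR61, matricellular proteins and targets of YAP, were at 4.70 and 5.25 CPM and at 53.9 and 57.4 CPM in the combination, against 10.4 and 13.8 CPM and 97.0 and 131 CPM in dexamethasone. Their log2 fold changes were -1.28 ± 0.20 (adjusted p = 0.00773) and -1.03 ± 0.16 (adjusted p = 0.00755). With ANKRD1, also a YAP target, and the factor gene TEAD3 they made 4 of 27 that fell, with 0 higher and a list median of -0.25. Of all genes 1.84% fell and 0.824% rose. CTGF and CYR61 lost their calls without combination replicate 1 or dexamethasone replicate 2, ANKRD1 also without the unnumbered combination library, and TEAD3 without any library outside DMSO (adjusted p up to 0.316), and without each of the 4 libraries 0 to 5 of the list fell. Of 26 keratin and junction genes KRT80, KRT23 and JUP fell and 0 rose, against the same shares over all genes. The keratin gene KRT80 was at 92.0 and 92.7 CPM against 162 and 193 CPM (-0.94 ± 0.14, adjusted p = 0.00576), a call lost without dexamethasone replicate 2 (adjusted p = 0.0574). KRT23 (-0.85 ± 0.17) lost its call without any library outside DMSO, and the plakoglobin gene JUP (-0.55 ± 0.13) without any combination or estradiol library or dexamethasone replicate 2 (adjusted p up to 0.348). The endometrial lineage factor gene PAX8, an epithelial marker, was at 180 and 208 CPM in the combination and 272 and 276 CPM in dexamethasone (-0.50 ± 0.11, adjusted p = 0.0484), a call lost without any combination or dexamethasone library (adjusted p up to 0.352) and with DESeq2 size factors (adjusted p = 0.0506). The integrin gene ITGB3, a receptivity marker, was at 23.8 and 24.4 CPM against 32.8 and 38.6 CPM (-0.57 ± 0.12), a call lost without any combination or estradiol library or dexamethasone replicate 2 (adjusted p up to 0.299).

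CYP1A1, a cytochrome P450 that hydroxylates estrogens, was at 1.77 and 2.24 CPM in the combination and 5.97 and 9.93 CPM in dexamethasone (-1.97 ± 0.31, adjusted p = 0.00862), a call lost without combination replicate 1 or dexamethasone replicate 2 (adjusted p up to 0.0767). It was the 1 lowered gene among 23 of steroid and xenobiotic metabolism. TIPARP, like CYP1A1 a target of the aryl hydrocarbon receptor, rose instead, at 38.5 and 38.1 CPM against 28.5 and 24.9 CPM (0.52 ± 0.11, adjusted p = 0.0299), a call lost without any combination or estradiol library or dexamethasone replicate 2 (adjusted p up to 0.255). LMO3, a transcriptional cofactor gene, was at 3.02 and 2.92 CPM in the combination and 7.46 and 10.7 CPM in dexamethasone (-1.60 ± 0.21, adjusted p = 0.00338). The alpha-kinase gene ALPK2 was at 2.31 and 2.47 CPM against 6.45 and 7.46 CPM (-1.54 ± 0.19, adjusted p = 0.00338). FAXDC2 and KLHL1 were also among the 12 largest decreases, at -1.53 ± 0.23 and -1.51 ± 0.23. FAXDC2 lost its call without either combination library (adjusted p up to 0.0767), and KLHL1 without the unnumbered combination library or dexamethasone replicate 2 (adjusted p up to 0.0742).

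Lists of growth machinery genes held few calls, but only 2.67% of all genes were called. Lists of this size are then expected to hold few or none, so 0 calls says little about them. At an unadjusted p under 0.05 were 2371 of all 14201 genes. Of 27 DNA replication genes, 26 mitosis genes and 33 ribosome biogenesis genes 0 were called by edgeR, DESeq2 or limma-voom, with 5, 2 and 7 at an unadjusted p under 0.05. Their median log2 fold changes were -0.07, -0.02 and 0.13. The same held for 13 NF-kB inflammation genes and 16 interferon genes, with 4 and 3 at an unadjusted p under 0.05. Of 28 cholesterol and fatty acid genes the desaturase gene FADS1 fell (-0.41 ± 0.09), and of 18 unfolded protein response genes the sensor gene ERN1 rose (0.84 ± 0.16). FADS1 lost its call without any library outside DMSO and ERN1 without any combination or dexamethasone library (adjusted p up to 0.427), and FADS1 also lost it in a fit of the 4 libraries alone (adjusted p = 0.0556). Of 15 housekeeping genes 0 were called by edgeR or DESeq2 and 1 by limma-voom, with 1 at an unadjusted p under 0.05. The gene at an unadjusted p under 0.05 was that of the elongation factor EEF1A1, which stood at 4030 and 7639 CPM in the combination and 10122 and 13122 CPM in dexamethasone, with combination replicate 1 lowest (-0.99 ± 0.24, adjusted p = 0.0575). EEF1A1 shares 1425 bases at 91.9% identity with a pseudogene copy, so its counts may be split.

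The same hormone without dexamethasone was read from the other 4 libraries, which share none with the comparison above. Estradiol over DMSO called 256 of 14201 genes (1.80%), 169 higher (1.19%) and 87 lower (0.613%). Of the 169 raised genes, 77 (45.6%) also rose when estradiol was added to dexamethasone, and these were 65.8% of the 117 raised there. A further 1 of the 169, EHF, fell, and 158 had the same sign. Of the 87 lowered genes, 54 (62.1%) also fell, which were 20.6% of the 262 lowered in the dexamethasone background, and 86 had the same sign. The median log2 fold change of the 169 was 0.70 with dexamethasone and 1.17 without, and that of the 87 was -0.61 with and -0.70 without, where the second value of each pair chose the genes. Over all 14201 genes the 2 effects correlated with a Pearson r of 0.401 and a Spearman rho of 0.405, a description across genes, which are not independent replicates.

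The raised genes depended on which dexamethasone library was the baseline. The median log2 ratio of the combination over dexamethasone replicate 1 was 0.51 for the 169 genes and over replicate 2 it was 0.91. Of the 169, 147 were higher in replicate 1 than in replicate 2, beside 7140 of all 14201 tested genes. For the 87 lowered genes these medians were -0.57 and -0.69. Without dexamethasone replicate 1, 91 of the 169 and 50 of the 87 were called in the same direction, and the median of the 169 was 0.92. Without dexamethasone replicate 2 the counts were 28 and 23, without combination replicate 1 they were 29 and 16, and without the unnumbered combination library 28 and 26.

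**Figure D4:**
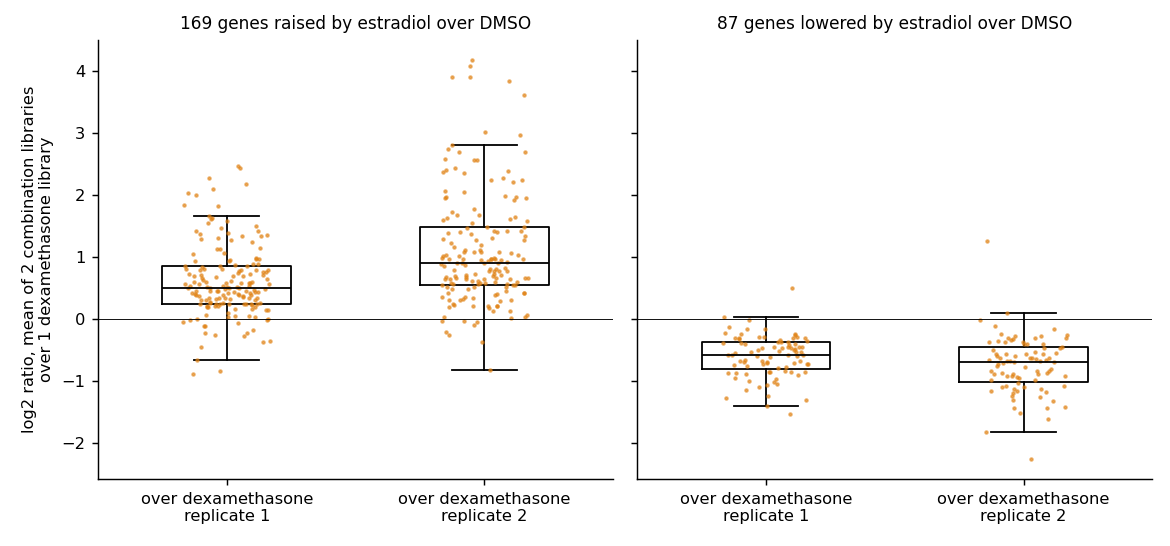
Log2 ratio of the mean of the 2 combination libraries over each dexamethasone library, for the 169 genes raised and the 87 genes lowered by estradiol over DMSO; points are genes, boxes show the quartiles and median, and whiskers reach 1.5 times the box height. The median of the raised genes is 0.51 over replicate 1 and 0.91 over replicate 2, and that of the lowered genes is -0.57 and -0.69.

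Whether the effect of estradiol differed between the 2 backgrounds was tested by the interaction, the fold change of combination over dexamethasone minus that of estradiol over DMSO. It was called for 3 genes (0.0211%), EHF, PPP1R1B and POTEF, while 733 genes reached an unadjusted p under 0.05. Within the 117 raised genes 0 had a called interaction by edgeR and 36 an unadjusted p under 0.05, and among the 262 lowered genes these numbers were 2 and 96. These genes were chosen by a difference that is part of the interaction, so a larger share of small p than over all genes is partly built in. The greater number of lowered genes in the dexamethasone background was thus not shown gene by gene to be a different response. TSC22D3 is an example: estradiol over DMSO gave -0.33 ± 0.15 (adjusted p = 0.436), combination over dexamethasone -1.01 ± 0.13, and the difference had an adjusted p of 0.76.

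EHF, an epithelial transcription factor of the ETS family, was at 16.7 and 19.1 CPM in the combination and 33.0 and 31.7 CPM in dexamethasone, but at 13.9 and 13.6 CPM in estradiol and 9.50 and 7.20 CPM in DMSO. Estradiol thus lowered it over dexamethasone (-0.85 ± 0.14, adjusted p = 0.00921) and raised it over DMSO (0.72 ± 0.15, adjusted p = 0.039), with an interaction of -1.57 (adjusted p = 0.0462). PPP1R1B, an inhibitor of protein phosphatase 1, was at 29.4 and 25.3 CPM in the combination and 68.1 and 63.5 CPM in dexamethasone, with 9.01 and 10.3 CPM in estradiol and 8.13 and 6.81 CPM in DMSO. Its decrease over dexamethasone was -1.27 ± 0.12 (adjusted p = 0.00107), estradiol over DMSO gave 0.38 ± 0.15 (adjusted p = 0.325), and the interaction was -1.64 (adjusted p = 0.0231). POTEF, a gene of the POTE ankyrin family with an actin-like part, was at 1.95 and 2.11 CPM in the combination, 1.40 and 0.786 CPM in dexamethasone, 1.75 and 1.94 CPM in estradiol and 75.9 and 99.8 CPM in DMSO. Its interaction of 6.43 (adjusted p = 4.08e-05) came with a high level in both DMSO libraries, and it was not called over dexamethasone (0.87 ± 0.30, adjusted p = 0.181). The interaction of EHF lost its call without any combination or estradiol library or dexamethasone replicate 1 (adjusted p up to 0.366), and that of PPP1R1B without dexamethasone replicate 1, either estradiol library or the unnumbered combination library (adjusted p up to 0.331). EHF also lost its call over dexamethasone without combination replicate 1 or dexamethasone replicate 2 (adjusted p up to 0.12).

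**Figure D5:**
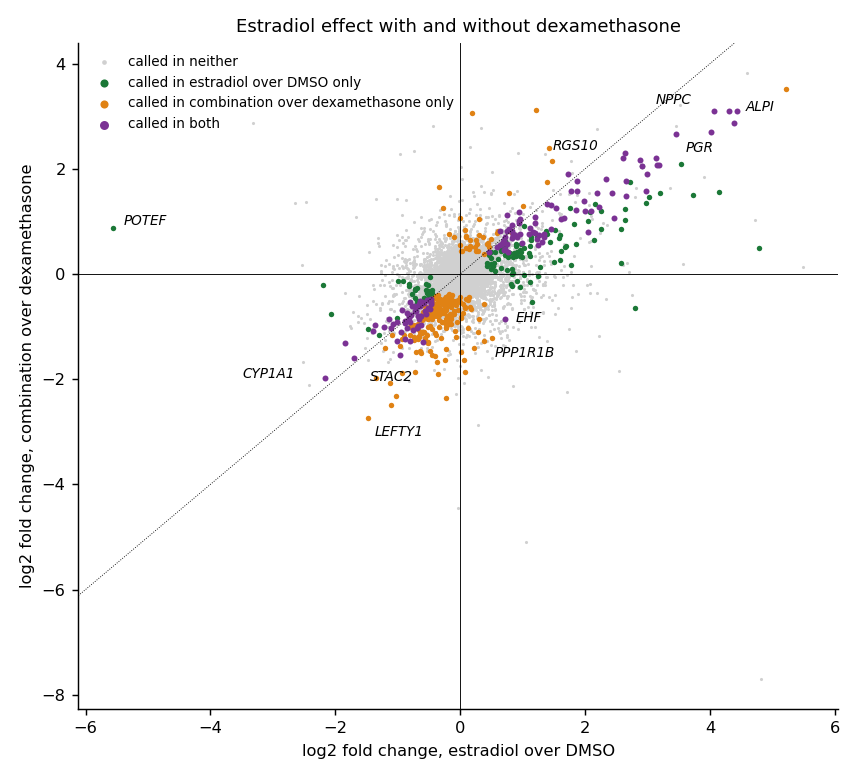
Log2 fold change of combination over dexamethasone (vertical) against that of estradiol over DMSO (horizontal) for 14201 genes, coloured by where each gene was called; the dotted line marks equal effects. Genes called in both comparisons lie in the upper right and lower left apart from EHF, and POTEF lies at -5.56 on the horizontal axis.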

How the data were processed

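RNA of 8 libraries, 2 per group, was measured; per the labels' protocols they were stranded mRNA libraries. The authors deposited raw counts per gene (hg19) and a normalised signal equal to each count divided by a factor per library (0.876 to 1.11). HISAT2 2.0.4, Subread, featureCounts 1.5.1 and DESeq2 1.14.1 are named in the submitters' processing notes. Annotation and strand setting: not given in the sources used here. Both combination columns carry the number 1, so that whose name matches a label was taken as replicate 1 and the other as unnumbered.

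The counts were tested with edgeR 4.0.16 (filterByExpr, TMM, glmQLFit and glmQLFTest) in R 4.3.3, with all 8 libraries in 1 fit (4 residual degrees of freedom) and Benjamini-Hochberg adjustment over 14201 genes. limma-voom (limma 3.58.1), DESeq2 1.42.0, DESeq2 size factors, no filter, only the libraries compared, a replicate block and leaving out each library were alternatives. Deviations from the group means of same-numbered libraries correlated by 0.153 (estradiol and DMSO), 0.243 (dexamethasone and DMSO) and 0.0493 (dexamethasone and estradiol). All were positive, and they do not settle whether the numbers pair the libraries. The main fit has no block because the labels state no pairing.

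Members and gene lists were chosen with earlier results of these data known. Named were the 12 largest called changes per direction (mean log2 CPM above 1, no overlap), up to 4 members of each of 35 lists by smallest p, 9 fixed genes and genes with a called interaction; EEF2K and other list members named without values follow from their counts. Near copies were sought with blastn 2.17.0 in GENCODE transcripts (300 bases at 90% identity). PGR, SCNN1A, BCL2L1, BMF, DDIT4, FAS, CCND1, DUSP6, HIF3A, SLC9A3R1, NRIP1, LIFR, TGM2, DEGS2, CISH, KLHL1, ALPK2, JUNB, RARA, PAX8 and SLC7A5 share at least 200 exon bases with a gene on the other strand, whose reads may not be separated. By the same searches ITGB3, TGFB2 and LEFTY1 share exon bases with another gene on their own strand, and GREB1, NR3C1 and SLC7A5 have near copies, so their counts are uncertain. Some genes that the rule takes are left out of the text.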

Additional observations from a re-analysis of the deposited data

Results flagged for a closer look

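The effect of estradiol differed between the backgrounds with and without dexamethasone, by edgeR's interaction test over all genes, at 3 genes. EHF had an interaction of -1.57 on the log2 scale (adjusted p = 0.0462): both combination libraries were lower than both dexamethasone libraries, and both estradiol libraries were higher than both DMSO libraries. PPP1R1B had an interaction of -1.64 (adjusted p = 0.0231), with both combination libraries lower than both dexamethasone libraries. POTEF had an interaction of 6.43 (adjusted p = 4.08e-05), with 2 of 2 DMSO libraries high and the other 6 libraries at 2.11 CPM or less. POTEF shares 3536 bases at 99.3% identity with POTEE, so its counts are uncertain.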

How the results depend on the processing

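Depth and design limit these results: 2 libraries per group, few counts at genes below about 1 CPM, and calls that change with the library left out. For combination over dexamethasone the 379 calls became 658 without a filter on low counts, with 20028 genes tested and 40.7% of the calls higher in place of 30.9%. They became 176 with a replicate block over the 7 numbered libraries, in which the unnumbered combination library is left out, and between 89 and 488 when each library was left out. The share of higher calls was 43.8% without combination replicate 1 and 43.2% without dexamethasone replicate 1. DESeq2 gave 463, limma-voom 379, DESeq2 size factors 375 and the 4 libraries alone 457. For estradiol over DMSO the 256 calls became 442 without a filter, 442 with the replicate block and between 58 and 298 when each library was left out. The 3 interaction calls became 13 in DESeq2, 32 without a filter, 5 with the replicate block and between 1 and 10 when each library was left out. The cause was not tested. Counts with the block differ from the main counts by the block and also by the library left out. Same-numbered libraries are not known to be paired, and their deviations correlated by 0.0493 to 0.243.

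Of 82 named genes called in combination over dexamethasone, 31 kept the call under all alternatives and 51 lost it under at least 1. With both libraries of each compared group kept, DESeq2 ended 5 of the 82 calls, limma-voom 1, DESeq2 size factors 1 and the 4 libraries alone 2. The replicate block also leaves out the unnumbered combination library, so the calls it ended cannot be put down to the block alone. Over 2195 values of named genes under alternatives, 0 called values changed direction, 241 lost a call and 42 gained one. List counts and counts among estradiol-called genes without single libraries were added after seeing the data.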
